A study of Mus musculus with 8 samples.

Results

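The Hox cluster genes are the mouse genes whose symbol is Hox, a cluster letter from a to d and a paralog number, and 39 of the 36333 listed genes matched that pattern. They comprise 11 Hoxa genes, 10 Hoxb genes, 9 Hoxc genes and 9 Hoxd genes. The matching used gene names only, and no measured value entered it. RNA was taken from the ventral lobe of the prostate of 4 hSKP2-KI mice and 4 wild-type (WT) mice, all 12 months old, with 1 library per mouse. In the hSKP2-KI mice the coding sequence of human SKP2, the F-box subunit of a ubiquitin ligase, was inserted with a P2A peptide into exon 1 of the endogenous probasin gene Pbsn, so that the probasin promoter, active in prostate epithelium, drives it. These mice descend from heterozygous knock-in females crossed with WT FVB/N males, the WT mice are FVB/N without the insert, and no treatment is named for either group. Several knock-in lines were made in the study, and the line of the sequenced mice was not given in the sources used here.

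Hox genes encode homeodomain transcription factors that give cells their position along the body axis. Genes at one end of each cluster (low paralog numbers) act in anterior tissue and genes at the other end (high paralog numbers) in posterior tissue, and the posterior genes pattern the urogenital tract and limbs. In the male tract, Hoxa10, Hoxa13 and Hoxd13 take part in the growth and shaping of the prostate, and Hoxb13 is a lineage factor of the prostate epithelium that is needed for secretory differentiation of the ventral lobe.

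The libraries went with their labels. The gene listed is mouse Skp2, and reads were mapped to the mouse genome, whereas the insert is human SKP2. Whether human or mouse transcripts gave the Skp2 values of the hSKP2-KI samples was not tested. Skp2 lay between 1.05 and 2.27 TPM (transcript abundance corrected for length) in the WT samples and between 37.3 and 60.6 in the hSKP2-KI samples, and Pbsn between 3980 and 9232 in WT and between 93.0 and 174 in hSKP2-KI. This unit divides the reads of a gene by transcript length and scales each library to the same total, so levels can be compared between genes, but the number of reads behind a value is unknown. A few secretory genes filled much of that total: Sbp, Sbpl and Spink1 together took 404156 to 458469 TPM in WT and 321196 to 343438 TPM in hSKP2-KI samples. On the log2(TPM + 1) scale the median difference of the 13080 genes tested was 0.23 toward hSKP2-KI. Under median-ratio scaling, which divides each sample by the median of its genes' ratios to their geometric means, that median was -0.01. The difference of each tested Hox gene is therefore given on both scales, the TPM as deposited and the median-ratio scale. Sums over genes are given on the TPM as deposited only.

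In GRCm38 the Hoxa genes lie on the minus strand at chr6:52155590-52260880 and the others on the plus strand, Hoxb at chr11:96194316-96368256, Hoxc at chr15:102921103-103036852 and Hoxd at chr2:74668310-74765142. The clusters span 105 kb (Hoxa), 174 kb (Hoxb), 116 kb (Hoxc) and 96.8 kb (Hoxd). The 250 bases before the RefSeq starts of 4 genes are shown because the results turn on these genes: Hoxa10, Hoxa11 and Hoxd13 were higher in hSKP2-KI prostates, whereas Hoxb8 had the lowest fold change of the members tested. Capitals mark TAAT or its reverse complement ATTA, the core that many homeodomains bind. The Hoxa10 window, before the inner of the 2 RefSeq starts, is chr6:52234940-52235189 on the minus strand and lies in an intron of the longer Hoxa10 transcript. The Hoxa11 window, chr6:52245811-52246060 on the minus strand, overlaps exons of the antisense gene Hoxa11os and of Gm28032, both on the plus strand. The Hoxd13 window at chr2:74667975-74668224 and the Hoxb8 window at chr11:96281655-96281904, both on the plus strand, overlap no annotated gene. In the annotation used for gene positions Hoxd13 begins later, at 74668310. The bases after its RefSeq start were found in no annotated transcript of the gene.
Hoxa10: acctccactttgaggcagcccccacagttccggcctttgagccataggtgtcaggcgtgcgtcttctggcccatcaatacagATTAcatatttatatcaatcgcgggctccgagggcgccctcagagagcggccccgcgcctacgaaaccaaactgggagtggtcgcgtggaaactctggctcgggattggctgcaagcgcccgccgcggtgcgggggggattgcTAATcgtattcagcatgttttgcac
Hoxa11: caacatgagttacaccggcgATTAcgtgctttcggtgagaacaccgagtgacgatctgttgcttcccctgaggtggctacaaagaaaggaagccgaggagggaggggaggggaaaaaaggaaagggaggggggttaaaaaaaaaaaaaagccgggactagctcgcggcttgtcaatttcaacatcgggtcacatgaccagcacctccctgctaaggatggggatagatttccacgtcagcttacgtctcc
Hoxd13: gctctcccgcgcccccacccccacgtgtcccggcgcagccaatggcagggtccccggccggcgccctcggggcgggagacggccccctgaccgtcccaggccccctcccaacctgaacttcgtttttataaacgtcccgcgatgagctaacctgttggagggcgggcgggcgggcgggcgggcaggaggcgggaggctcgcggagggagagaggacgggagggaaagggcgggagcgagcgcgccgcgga
Hoxb8: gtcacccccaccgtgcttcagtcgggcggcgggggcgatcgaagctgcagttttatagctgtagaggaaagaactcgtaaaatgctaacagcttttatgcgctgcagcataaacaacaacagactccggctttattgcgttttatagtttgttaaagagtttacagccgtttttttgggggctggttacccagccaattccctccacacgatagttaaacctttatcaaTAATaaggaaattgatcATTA
The Hoxd13 window held 31 CpG dinucleotides and no TAAT or ATTA, the Hoxa10 window 20 and 2, the Hoxa11 window 13 and 1, and the Hoxb8 window 12 and 2.

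RefSeq gave 24 such windows for 22 of the Hox genes. Their median number of CpG dinucleotides was 12.5 (2 to 35), against 6 over all 32851 windows of the same length. TAAT or ATTA occurred in 18 of the 24 windows (75.0%), against 54.9% of all windows, and CCAAT or its reverse complement ATTGG in 14 (58.3%), against 33.8%. TATAAA or TTTATA occurred in 4 (16.7%), against 12.4%. The posterior HOX sequence CCAATAAA or TTTATTGG, which contains the CCAAT letters, was in none of the Hox windows and in 1.02% of all windows. These letter matches describe the windows and were not tested for binding.

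The ventral prostate expressed mainly posterior Hox genes, and Hoxb13 stood far above the others. Of the 39 genes, 24 reached 1 TPM in at least 4 of the 8 samples and were tested (8 Hoxa, 9 Hoxb, no Hoxc and 7 Hoxd genes), and 15 did not. In WT prostates the order of mean TPM began with Hoxb13 (681), Hoxa11 (28.0), Hoxa10 (15.8), Hoxb8 (12.5), Hoxd13 (10.8), Hoxa13 (9.68) and Hoxa9 (8.08). The lowest WT value of Hoxb13 (625) lay above the highest of Hoxa11 (36.5), and the lowest of Hoxa11 (21.7) above the highest of Hoxa10 (19.2). From Hoxa10 down, the ranges of neighbours in this order overlapped, 12.7 to 19.2 for Hoxa10 and 6.03 to 15.3 for Hoxb8. Hoxb13 ranked 113 among all listed genes by WT mean.

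**Figure D1:**
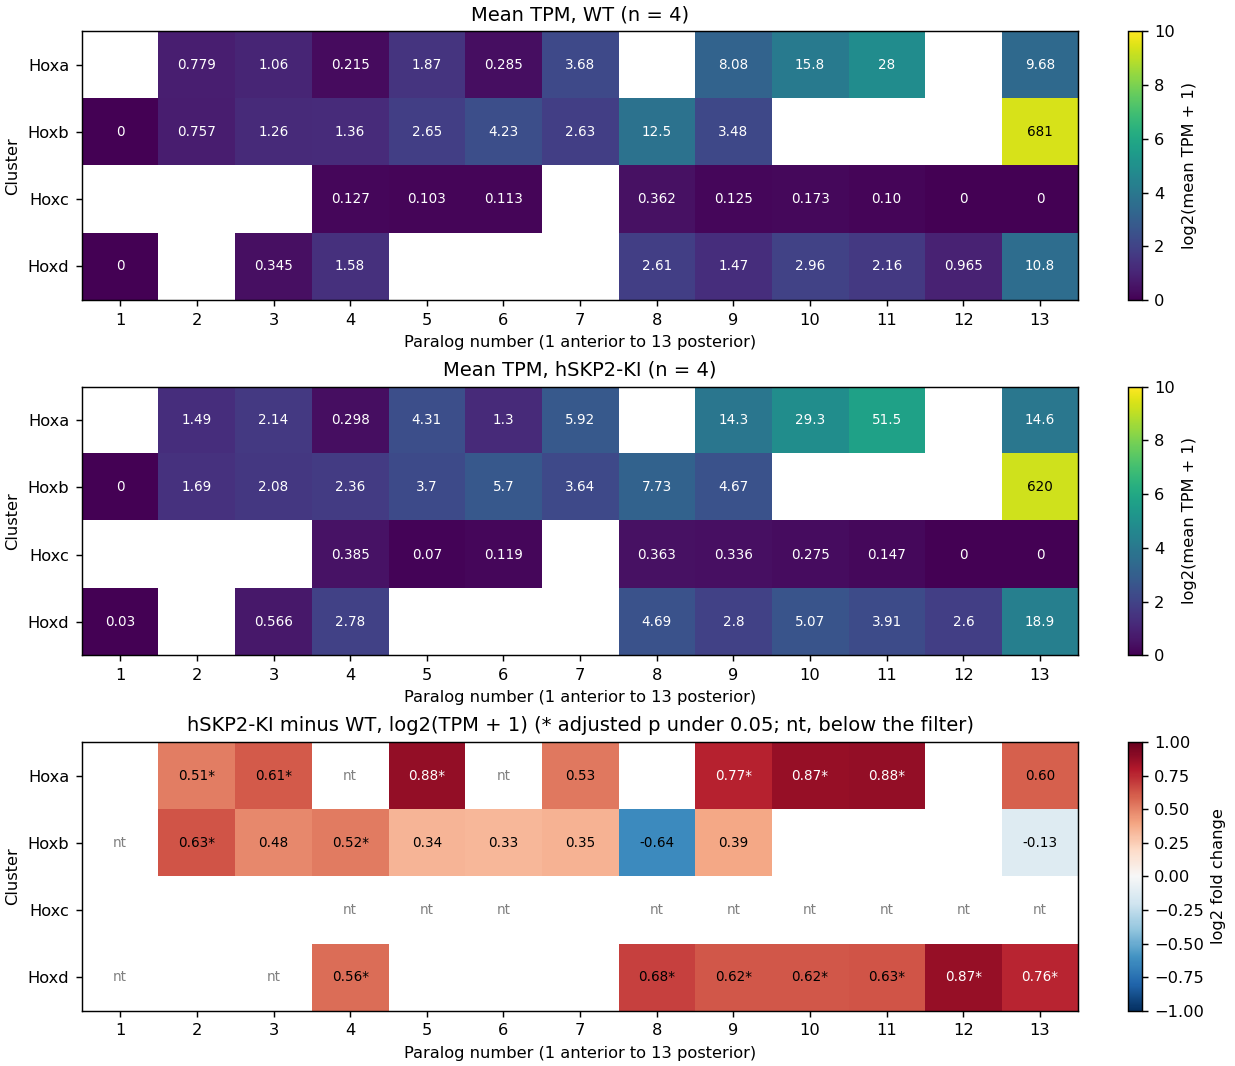
Mean TPM of each Hox gene in WT (top) and hSKP2-KI (middle) prostates, on a color scale of log2(mean TPM + 1), and their difference on the log2(TPM + 1) scale (bottom), by cluster (rows) and paralog number (columns), n = 4 per genotype. Blank squares have no gene or one not reported here, nt marks genes below the filter, and an asterisk marks an adjusted p under 0.05, which 6 Hoxa, 2 Hoxb and 7 Hoxd genes reached.

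Among the tested genes, 15 were higher in hSKP2-KI prostates and none was lower at an adjusted p under 0.05 (limma, Benjamini-Hochberg over all genes tested), where 32.7% of all genes tested were called higher and 1.23% lower. By cluster, 6 of 8 Hoxa genes, 2 of 9 Hoxb genes and 7 of 7 Hoxd genes were called. The median log2 fold change was 0.60 over the Hox genes tested (0.69 for Hoxa, 0.35 for Hoxb and 0.63 for Hoxd), against 0.23 over all genes. Under median-ratio scaling 9 were called higher, 4 Hoxa and 5 Hoxd genes, where 6.92% of all genes were called higher, and the median was 0.40. Over all genes the split of higher to lower calls was 4272 to 161 on the TPM as deposited and 905 to 556 under median-ratio scaling. The filter enters these counts: 7 of the 24 genes (Hoxa2, Hoxa3, Hoxb2, Hoxb3, Hoxb4, Hoxd4 and Hoxd12) had 1 TPM in every hSKP2-KI sample but in fewer than 4 WT samples. All of these except Hoxb3 were called higher on the TPM as deposited, and Hoxb2 and Hoxb4 were the 2 Hoxb calls. Of the other 17, with at least 1 TPM in all 8 samples, 9 were called higher, and 8 under median-ratio scaling.

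In 14 of the 24 genes every hSKP2-KI sample lay above every WT sample, where 34.0% of all genes did so, and in none did every hSKP2-KI sample lie below. Among these 14, Hoxa2, Hoxb2, Hoxb3, Hoxb4 and Hoxd12 had 1 TPM in every hSKP2-KI sample but in fewer than 4 WT samples. Under median-ratio scaling every hSKP2-KI sample lay above every WT sample in 10 genes, where 10.3% of all genes did so. On that scale Hoxb3, Hoxb4, Hoxd11 and Hoxd12 overlapped. Hoxa9, Hoxa10, Hoxa11 and Hoxd13 were called higher under each of the 3 scalings tried (median-ratio scaling, quantile normalization and rescaling without the 20 most abundant genes). Hoxa2, Hoxa3, Hoxb2, Hoxb4, Hoxd4 and Hoxd9, called on the TPM as deposited, were called under none of them. In whole tissue, fewer cells of a type and less RNA per cell cannot be told apart, and all levels here are of whole ventral lobes.

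**Figure D2:**
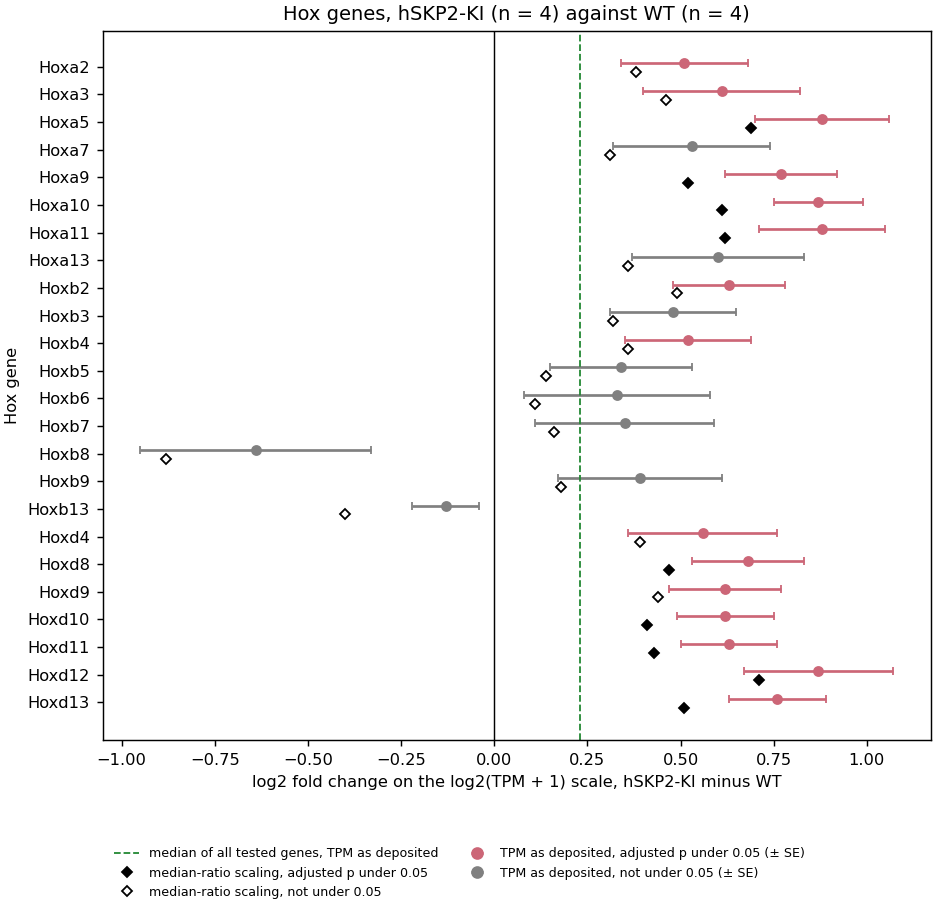
Log2 fold change of the 24 tested Hox genes, hSKP2-KI minus WT (n = 4 each), on the log2(TPM + 1) scale: circles with standard errors for the TPM as deposited, diamonds for median-ratio scaling, and a dashed line at the median of all genes tested (0.23). Filled diamonds and red circles have an adjusted p under 0.05, and Hoxb8 (-0.64) and Hoxb13 (-0.13) are the 2 genes left of 0.

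Hoxa9, Hoxa10 and Hoxa11, the posterior Hoxa genes before Hoxa13, were all higher in hSKP2-KI prostates. Hoxa11 (chr6:52242106-52245810), which acts in the stroma of the reproductive tract and in the limb, measured 22.0, 36.5, 21.7 and 31.7 TPM in WT samples 1 to 4 and 40.4, 55.6, 50.1 and 60.0 TPM in hSKP2-KI samples 1 to 4. Every hSKP2-KI sample lay above the highest WT sample, WT 2. Its mean was 51.5 ± 8.44 against 28.0 ± 7.34 TPM (SD, n = 4 each), a log2 fold change of 0.88 (standard error 0.17, limma adjusted p = 0.00554) and of 0.62 under median-ratio scaling (adjusted p = 0.0258).

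Hoxa10 (chr6:52231197-52240854), known for its part in the lobes of the prostate and in the uterus, gave the smallest adjusted p of the family. Its TPM was 13.9, 17.2, 12.7 and 19.2 in WT and 28.7, 29.3, 27.9 and 31.5 in hSKP2-KI samples, so the hSKP2-KI samples were close to each other and all above WT. The log2 fold change was 0.87 (standard error 0.12, limma adjusted p = 0.00141), and 0.61 under median-ratio scaling (adjusted p = 0.00667). Hoxa9 (chr6:52223100-52231089), a posterior gene also known from blood stem cells, measured 6.98, 10.3, 6.15 and 8.90 TPM in WT and 14.2, 12.9, 13 and 16.9 TPM in hSKP2-KI samples. Its groups did not overlap either, and the log2 fold change was 0.77 (standard error 0.15, limma adjusted p = 0.00525), or 0.52 under median-ratio scaling (adjusted p = 0.0281).

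Hoxa13 (chr6:52257694-52260880), a gene of the hindgut and the genital tubercle, did not pass the test. It measured 6.13, 15.1, 7.16 and 10.3 TPM in WT and 12.3, 12.9, 14.4 and 18.6 TPM in hSKP2-KI samples. WT sample 2 lay inside the hSKP2-KI range and the other WT samples below it. The log2 fold change was 0.60 with a standard error of 0.23 (limma adjusted p = 0.0616), and 0.36 under median-ratio scaling (adjusted p = 0.283). With WT sample 2 left out it was 0.82 (adjusted p = 0.0110), and with any other sample left out it lay between 0.43 and 0.67 and was not called (adjusted p = 0.0651 to 0.164).

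Of the central and anterior Hoxa genes, Hoxa5 had the largest fold change. Hoxa5 (chr6:52201754-52204587), needed for lung and other mesenchyme, measured 1.66, 2.42, 1.24 and 2.16 TPM in WT and 5.08, 3.58, 3.08 and 5.50 TPM in hSKP2-KI samples. The groups did not overlap, and the log2 fold change was 0.88 (standard error 0.18, limma adjusted p = 0.00702), or 0.69 under median-ratio scaling (adjusted p = 0.0338). Hoxa2 and Hoxa3, hindbrain and pharyngeal arch genes, were called on the TPM as deposited (0.51 and 0.61, limma adjusted p = 0.0367 and 0.0474) but not under median-ratio scaling (0.38 and 0.46, adjusted p = 0.146 and 0.166). They measured 0.779 ± 0.387 and 1.06 ± 0.494 TPM in WT and 1.49 ± 0.106 and 2.14 ± 0.789 TPM in hSKP2-KI samples. With single samples left out, Hoxa2 was called in 1 of 8 fits, the one without WT sample 2 (0.63), and without each other sample its adjusted p lay between 0.0583 and 0.0783. Hoxa3 was called in 2 of 8, without WT sample 2 (0.73) or hSKP2-KI sample 1 (0.70), and its adjusted p was 0.0542 to 0.124 without each other sample. Hoxa7 measured 3.68 ± 0.895 TPM in WT and 5.92 ± 2.26 in hSKP2-KI samples (log2 fold change 0.53, limma adjusted p = 0.0690, and 0.31 with adjusted p = 0.326 under median-ratio scaling), and its groups overlapped. It was called without WT sample 2 (0.65, adjusted p = 0.0427) and without hSKP2-KI sample 3 (0.67, adjusted p = 0.0388), and in no other of these fits. Without hSKP2-KI sample 4, the highest at 9.20 TPM, it fell to 0.33 (adjusted p = 0.157).

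**Figure D3:**
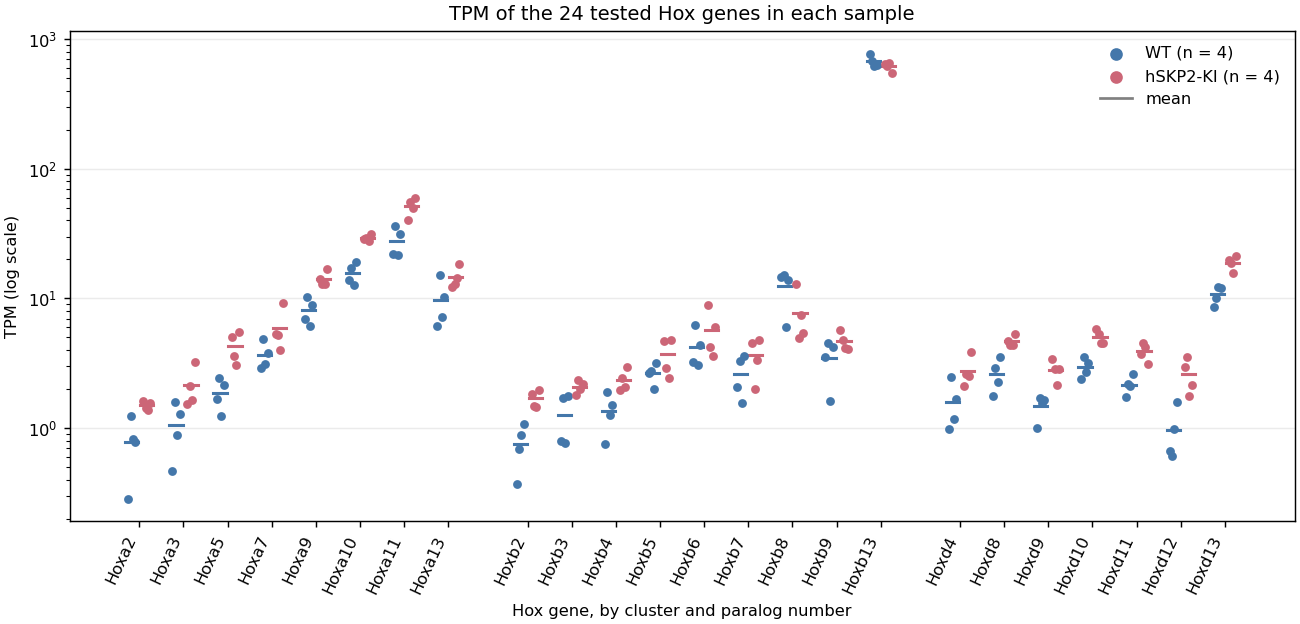
TPM of the 24 tested Hox genes in each WT (blue) and hSKP2-KI (red) sample on a log axis, with horizontal bars for the means of 4 samples and genes ordered by cluster and paralog number. Hoxb13 lies between 550 and 778 TPM in every sample and every other gene at or below 60.0 TPM.

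All 7 Hoxd genes tested were called higher in hSKP2-KI prostates on the TPM as deposited, beside 32.7% of all genes. Under median-ratio scaling 5 were, beside 6.92% of all genes, and under quantile normalization 1 was. Hoxd4 and Hoxd12 had 1 TPM in every hSKP2-KI sample but in fewer than 4 WT samples. Hoxd13 (chr2:74668310-74671599), the terminal gene of the cluster, known for digits and genitalia, measured 8.64, 10.1, 12.3 and 12.1 TPM in WT and 19.9, 18.9, 15.7 and 21.1 TPM in hSKP2-KI samples. The lowest hSKP2-KI sample lay above the highest WT sample. The log2 fold change was 0.76 (standard error 0.13, limma adjusted p = 0.00289), and 0.51 under median-ratio scaling (adjusted p = 0.0228). Its neighbour Hoxd12 (chr2:74675013-74677705), a low gene of the same domain, measured 0.666, 0.610, 0.983 and 1.60 TPM in WT and 2.96, 3.54, 1.77 and 2.14 TPM in hSKP2-KI samples. WT sample 4 came closest to the hSKP2-KI samples, and the log2 fold change was 0.87 (standard error 0.20, limma adjusted p = 0.00943), or 0.71 under median-ratio scaling (adjusted p = 0.0460). On that scale WT sample 4 (1.69) lay above hSKP2-KI sample 3 (1.61).

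Hoxd8, Hoxd10 and Hoxd11 also had no overlap between genotypes on the TPM as deposited. They had means of 4.69 ± 0.425, 5.07 ± 0.645 and 3.91 ± 0.625 TPM in hSKP2-KI and 2.61 ± 0.763, 2.96 ± 0.509 and 2.16 ± 0.361 TPM in WT prostates (SD, n = 4). Their log2 fold changes were 0.68, 0.62 and 0.63 (limma adjusted p = 0.00969, 0.00682 and 0.00754), and 0.47, 0.41 and 0.43 under median-ratio scaling (adjusted p = 0.0459, 0.0399 and 0.0460). With a sample also left out on that scale, each was called in 1 of 8 fits (adjusted p up to 0.110, 0.0942 and 0.107). Hoxd11 overlapped between genotypes under median-ratio scaling, with WT sample 4 at 2.77 and hSKP2-KI sample 4 at 2.76. Hoxd10 and Hoxd11 take part in the motor neurons and skeleton of the limb. Hoxd9 (1.47 ± 0.317 TPM in WT, 2.80 ± 0.517 in hSKP2-KI) was called on the TPM as deposited (0.62, limma adjusted p = 0.0114), and its median-ratio value was 0.44 (adjusted p = 0.0590). Hoxd4, the most anterior Hoxd gene tested, measured 1.58 ± 0.670 TPM in WT and 2.78 ± 0.766 in hSKP2-KI samples. Its log2 difference was 0.56 (adjusted p = 0.0475, called in 2 of 8 fits with a sample left out, those without WT sample 2 or hSKP2-KI sample 1, and 0.0706 to 0.124 in the others) and 0.39 under median-ratio scaling (adjusted p = 0.187). Reads of Hoxd3 and Hoxd4, whose exons overlap on the same strand, may be split between them by the counting.

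In the Hoxb cluster 2 of 9 genes were called higher, beside 32.7% of all genes, and none under median-ratio scaling. The cluster held the 2 members with a fold change below 0. Hoxb13 (chr11:96194316-96197447), the prostate epithelial gene, measured 778, 681, 625 and 638 TPM in WT and 645, 624, 661 and 550 TPM in hSKP2-KI samples. The ranges overlapped, WT sample 1 was the highest and hSKP2-KI sample 4 the lowest. On the TPM as deposited the log2 fold change was -0.13 (standard error 0.09, limma adjusted p = 0.265). It was -0.40 under median-ratio scaling (adjusted p = 0.0636), and Hoxb13 was called lower under quantile normalization (-0.40, adjusted p = 0.0249) and after rescaling without the 20 most abundant genes (-0.38, adjusted p = 0.0348).

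Hoxb8 (chr11:96281905-96285315), a gene of the trunk that also acts in blood progenitors, had the largest standard error of the fold change among the Hox genes tested. Its TPM was 14.7, 15.3, 6.03 and 13.9 in WT and 13, 4.95, 7.49 and 5.44 in hSKP2-KI samples. WT sample 3 lay with most of the hSKP2-KI samples, and hSKP2-KI sample 1 with most of the WT samples. The log2 fold change of -0.64 (standard error 0.31) did not pass the test (limma adjusted p = 0.121, and 0.109 at -0.88 under median-ratio scaling). Without WT sample 3 it was -0.93 (adjusted p = 0.0289), and without hSKP2-KI sample 1 it was -0.90 (adjusted p = 0.0352). Without any one of the other 6 samples it lay between -0.65 and -0.48 and was not called (adjusted p = 0.171 to 0.263).

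The 7 other Hoxb genes tested were low and had fold changes above 0. Hoxb2, a hindbrain gene, measured 0.368, 0.693, 0.889 and 1.08 TPM in WT and 1.84, 1.48, 1.46 and 1.98 TPM in hSKP2-KI samples, with no overlap (log2 fold change 0.63, limma adjusted p = 0.0131, and 0.49 with adjusted p = 0.0603 under median-ratio scaling). Hoxb4, known from blood stem cells, measured 1.36 ± 0.470 TPM in WT and 2.36 ± 0.442 in hSKP2-KI samples. It was called at 0.52 (limma adjusted p = 0.0347), in 3 of 8 fits with a sample left out (WT sample 2, hSKP2-KI sample 1 or hSKP2-KI sample 3, with adjusted p of 0.0508 to 0.0886 in the others), and had 0.36 under median-ratio scaling (adjusted p = 0.144). Hoxb3 (1.26 ± 0.553 TPM in WT, 2.08 ± 0.225 in hSKP2-KI) had 0.48 (limma adjusted p = 0.0535) although its groups did not overlap, and was called without WT sample 2 (0.58, adjusted p = 0.0350) or WT sample 4 (0.59, adjusted p = 0.0359), and not without any one of the others (0.37 to 0.52, adjusted p = 0.0645 to 0.137). Hoxb5, Hoxb6, Hoxb7 and Hoxb9 had mean levels of 2.65, 4.23, 2.63 and 3.48 TPM in WT and 3.70, 5.70, 3.64 and 4.67 TPM in hSKP2-KI prostates. They had log2 fold changes of 0.34, 0.33, 0.35 and 0.39 with overlapping groups (limma adjusted p = 0.165, 0.294, 0.248 and 0.168), and 0.14, 0.11, 0.16 and 0.18 under median-ratio scaling.

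The Hoxc cluster was low throughout. All 9 Hoxc genes were under 1 TPM in all 8 samples, and the highest value was 0.770 TPM for Hoxc4 in hSKP2-KI sample 2. Hoxc12, Hoxc13 and, outside that cluster, Hoxb1 were listed at 0 in all 8 samples. Over the whole family 14 genes stayed under 1 TPM everywhere. Of the 12 untested genes with a value above 0, the smallest two-sided p of an exact permutation test (70 ways to label the samples) was 0.0571, for Hoxc9 and Hoxd3, and the design can reach 0.0286. Hoxa6 was the one untested gene above 1 TPM: it measured 0.121, 0.651, 0.369 and 0 TPM in WT and 0.638, 1.11, 0.583 and 2.87 TPM in hSKP2-KI samples, and 2 of the hSKP2-KI samples lay within the WT range (exact permutation p = 0.0857). Hoxa4 and Hoxd1 lay at or below 0.437 TPM in every sample, and Hoxd3 at or below 0.742 TPM.

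Summed by cluster, Hoxa rose from 69.4 ± 17.9 to 125 ± 17.4 TPM (SD, n = 4 each, ratio of means 1.80) and Hoxd from 22.9 ± 3.84 to 41.3 ± 3.68 TPM (ratio 1.81), with no overlap between genotypes. Hoxb without Hoxb13 summed to 28.8 ± 8.47 TPM in WT and 31.6 ± 7.90 in hSKP2-KI prostates (ratio 1.10). By paralog number, the ratio was 1.85 for paralogs 1 to 4 (7.55 against 14.0 TPM), 1.21 for paralogs 5 to 8 (31.0 against 37.5 TPM) and 1.77 for paralogs 9 to 13 without Hoxb13 (83.7 against 148 TPM). The sum of all 39 genes was 803 ± 68.8 TPM in WT and 820 ± 30.4 in hSKP2-KI prostates. These sums are descriptions on the TPM as deposited, with no test.

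Within that total the makeup differed. Hoxb13 made up 88.4%, 81.8%, 86.7% and 82.0% of Hox TPM in the WT samples and 76.6%, 76.2%, 78.6% and 70.7% in the hSKP2-KI samples, so that each hSKP2-KI sample lay below each WT sample. Hoxa genes made up 8.67% ± 2.16 in WT and 15.4% ± 2.76 in hSKP2-KI, and Hoxd genes 2.88% ± 0.633 and 5.05% ± 0.569 (SD, n = 4). A ratio between 2 genes of the same sample is free of the scaling. Hoxa11 stood at 2.82%, 5.36%, 3.47% and 4.98% of Hoxb13 in WT and at 6.26%, 8.91%, 7.58% and 10.9% in hSKP2-KI samples. Hoxa10 stood at 1.79% to 3.02% of Hoxb13 in WT and at 4.22% to 5.72% in hSKP2-KI samples. Hoxd13 stood at 1.11% to 1.96% in WT and at 2.38% to 3.84% in hSKP2-KI samples.

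None of these ranges overlapped, and the mean differences were 1.04, 1.05 and 0.95 on the log2 scale. Each gave a two-sided exact permutation p of 0.0286, the smallest the design allows, and 0.0571 after Benjamini-Hochberg adjustment over the 6 ratios computed, which were chosen after the values of the genes were seen. The ratios of Hoxa13 and Hoxb8 to Hoxb13 overlapped between genotypes (exact permutation p = 0.114 and 0.257, adjusted 0.171 and 0.309). Hoxa11 over Hoxd13, 2 genes of different clusters, differed by 0.09 on the log2 scale (exact permutation p = 0.743, adjusted 0.743). Since none of the adjusted p-values was under 0.05 and the ratios were picked with the gene values in view, they are given as a description.

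**Figure D4:**
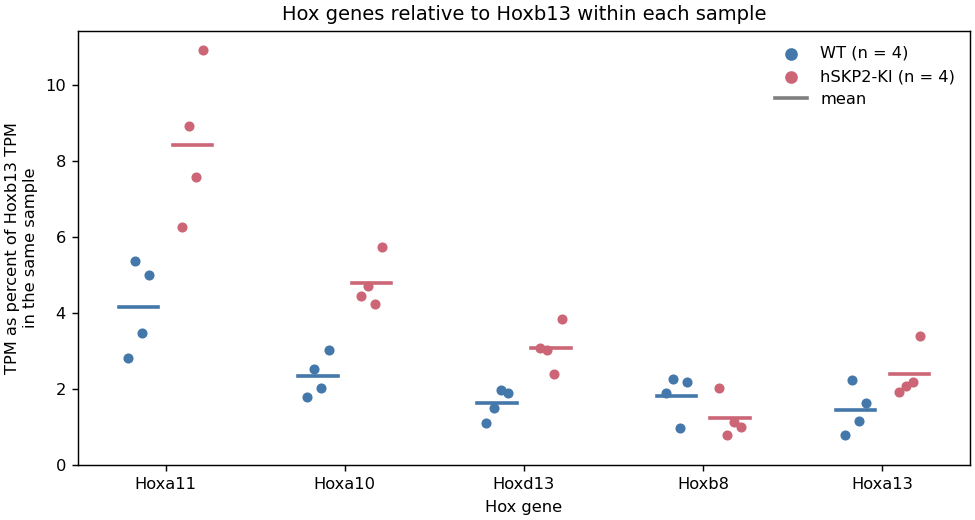
TPM of 5 Hox genes as a percentage of Hoxb13 TPM in the same sample, for WT (blue) and hSKP2-KI (red) prostates, with bars for the means of 4 samples. For Hoxa11, Hoxa10 and Hoxd13 the hSKP2-KI samples (6.26% and more, 4.22% and more, 2.38% and more) lie above all WT samples, and for Hoxb8 and Hoxa13 the genotypes overlap.

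The clusters also hold noncoding RNAs. Hoxa11os, the antisense transcript of Hoxa11, measured 46.1, 80.5, 44.9 and 69.8 TPM in WT and 115, 111, 89.9 and 126 TPM in hSKP2-KI samples, with no overlap (log2 fold change 0.90, standard error 0.18, limma adjusted p = 0.00614, and 0.63 with adjusted p = 0.0318 under median-ratio scaling). Its exons overlap Hoxa11 on the opposite strand. Whether the counting used the strand is not given in the sources used here, so reads in the shared stretch may have been counted for either gene. The same holds for Hoxa3 with 5730596B20Rik, Hoxaas2 and Hoxaas3, Hoxa7 with Hoxaas3, Hoxb5 with Hoxb5os, Hoxd3 with Haglr, and Hoxd3 and Hoxd4 with Hoxd3os1. Hoxb5os was called at 0.63 (limma adjusted p = 0.0260, and 0.125 under median-ratio scaling), whereas Hottip, which lies beyond Hoxa13, had 0.75 (adjusted p = 0.0662). Of the 10 noncoding RNAs looked up and listed, 3 were tested and 2 were higher, beside 32.7% of all genes, and 1 was higher under median-ratio scaling, beside 6.92%. Haglr stayed below the filter at 0.0344 to 0.0741 TPM in WT and 0.133 to 0.242 TPM in hSKP2-KI samples.

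Genes beside the clusters had smaller median fold changes than the Hoxa and Hoxd genes. In hSKP2-KI prostates 1 of 4 tested Hoxa neighbours was higher (Skap2, 0.41), 1 of 3 Hoxb neighbours (Cbx1, 0.29), 2 of 5 Hoxc neighbours (Calcoco1, 0.30, and Cbx5, 0.35) and 3 of 3 Hoxd neighbours (Atp5g3, 0.30, Mtx2, 0.29, and Hnrnpa3, 0.30). Of all genes 32.7% were called higher. The neighbours' median log2 fold changes were 0.17, 0.21, 0.30 and 0.30, beside 0.23 over all genes. Under median-ratio scaling none of them was called, and the medians lay between -0.09 and 0.03. The difference between the clusters and their neighbours was not tested.

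HOX proteins bind DNA together with TALE homeodomain cofactors of the PBX, MEIS and PKNOX families. Of 10 TALE genes tested, among them the repressor genes Tgif1 and Tgif2, 6 were higher and none was lower, beside 32.7% of all genes called higher and 1.23% lower, and the median log2 fold change was 0.37. Under median-ratio scaling 4 were higher and 1 lower, beside 6.92% of all genes called higher and 556 of all 13080 genes called lower. Meis1 (12.0 ± 0.966 TPM in WT, 18.0 ± 1.02 in hSKP2-KI, log2 fold change 0.55, limma adjusted p = 0.00250), Meis2 (0.73, adjusted p = 0.00616) and Pknox1 (0.61, adjusted p = 0.00655) were also called higher under median-ratio scaling, at 0.30, 0.50 and 0.39. Pbx2 and Meis3 were called at 0.33 and 0.36 on the TPM as deposited and were not under median-ratio scaling (0.07 and 0.11). Pknox2 was called lower under median-ratio scaling (-0.42, limma adjusted p = 0.0395) and not on the TPM as deposited (-0.16, adjusted p = 0.268). Foxa1, the gene of a pioneer factor of prostate epithelium, had -0.06 (limma adjusted p = 0.599), and under median-ratio scaling it was called lower at -0.33 (adjusted p = 0.0342).

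Polycomb proteins keep Hox clusters silent and trithorax proteins keep them active. On the TPM as deposited, 8 of 20 Polycomb genes were higher, led by the chromobox genes Cbx6 (0.52, limma adjusted p = 0.00627) and Cbx8 (0.47, adjusted p = 0.0346), and 2 of 14 trithorax and H3K27 demethylase genes were higher (Psip1, 0.36, and Wdr5, 0.34), beside 32.7% of all genes. Ezh2, the catalytic subunit of Polycomb repressive complex 2, had 0.21 (adjusted p = 0.168). Their medians were 0.23 and 0.17, beside 0.23 over all genes, and none was called under median-ratio scaling. None of the 3 Cdx genes, activators of Hox clusters in the embryo, passed the filter.

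Retinoic acid induces Hox genes in the embryo. Of 15 genes of its pathway tested, 8 were higher and 2 lower, beside 32.7% and 1.23% of all genes. Under median-ratio scaling 3 were higher, beside 6.92% of all genes, and 2 lower, beside 556 of all 13080 genes. Crabp1, a retinoic acid binding protein, fell from 287 ± 38.2 to 151 ± 29.7 TPM (SD, n = 4), a log2 fold change of -0.94 (limma adjusted p = 0.00158, and -1.20 under median-ratio scaling), and the receptor gene Rxrg had -0.44 (adjusted p = 0.0191). Rarb, the receptor gene that retinoic acid itself induces, had 0.83 (adjusted p = 0.00802) and the degrading enzyme Cyp26b1 0.71 (adjusted p = 0.00313), and both were also called under median-ratio scaling, at 0.65 and 0.52. Of 9 signals and enzymes of urogenital patterning tested, 7 were higher, beside 32.7% of all genes, and 3 of them under median-ratio scaling, beside 6.92%. These 3 were Bmp4 (0.80, then 0.56), the receptor Fgfr2 (0.74, then 0.50) and Wnt5a (0.77, then 0.57).

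Markers of several cell types moved in the same direction as the Hoxa and Hoxd genes. Fibroblast markers were higher in 9 of 10 genes, with a mean log2(TPM + 1) of 5.48 to 6.51 in hSKP2-KI against 4.60 to 5.27 in WT samples and a summed level of 886 to 1590 against 488 to 718 TPM. Smooth muscle markers were higher in 8 of 8 genes (8.14 to 8.65 against 7.49 to 7.85, summed 3166 to 4819 against 2123 to 2684 TPM), and none of either list was at 0 in all samples. The mean differences were 0.90 and 0.76, and 0.64 and 0.49 under median-ratio scaling, where 3 and 4 of these genes were called. Of all genes, 32.7% were called higher on the TPM as deposited and 6.92% under median-ratio scaling. Endothelial markers differed by 0.63 (4 of 6 called), leukocyte markers by 0.74 (2 of 6) and basal epithelial markers by 0.47 (2 of 4), and under median-ratio scaling 2 endothelial and no leukocyte or basal epithelial markers were called. General epithelial markers differed by 0.18 (2 of 6, summed 1939 to 2219 against 1687 to 1886 TPM), and by -0.09 under median-ratio scaling.

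Markers of proximal luminal cells (4 of 4 called higher, Krt4 with a log2 fold change of 2.38) differed by 1.90, and urothelial markers by 1.12 (3 of 3 tested). Of all genes, 32.7% were called higher. Under median-ratio scaling the differences were 1.64 (4 called) and, over the 3 urothelial markers tested, 0.95 (2 called), beside 6.92% of all genes. Secretory markers of the ventral lobe differed by -0.47 (1 of 3 called lower, beside 1.23% of all genes). Under median-ratio scaling they differed by -0.74, with none called. Skeletal muscle, Schwann cell and adipocyte markers differed by 0.34, 0.31 and 0.05 with overlapping groups, and the 6 seminal vesicle markers together stayed at or below 0.656 TPM in every sample, with 3 of them at 0 in all samples. The part of these cell types in the Hox values was not tested.

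The Hox levels were also set against these markers within each sample. Hoxa10 minus the fibroblast marker mean differed between genotypes by -0.03 on the log2(TPM + 1) scale, Hoxa11 by -0.02 and Hoxd13 by -0.14, and minus the smooth muscle mean by 0.12, 0.12 and 0.01, with overlapping groups in all 6 cases. Minus the epithelial mean the 3 genes differed by 0.69, 0.70 and 0.58, without overlap for Hoxa10 and Hoxd13. Hoxb13 went the other way: it differed by -1.03 and -0.89 against the fibroblast and smooth muscle means, without overlap, and by -0.31 against the epithelial mean, where it lay at 1.21 to 1.50 in hSKP2-KI and 1.49 to 1.91 in WT samples. Hoxb8 differed by -1.54, -1.39 and -0.82 against the 3 means, with overlap in each case. The Hox levels were not set in this way against the leukocyte and endothelial markers, which differed by 0.74 and 0.63, or against the other lists. These differences are descriptions, and the cells that express each gene were not measured.

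**Figure D5:**
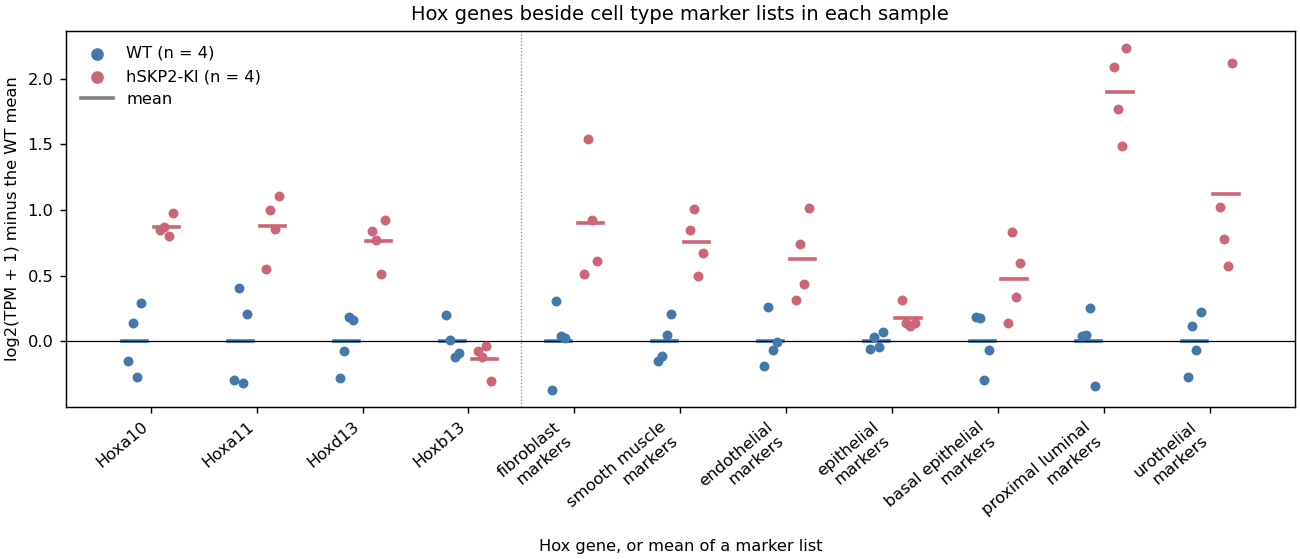
Level of 4 Hox genes (left of the dotted line) and mean of 7 cell type marker lists (right) in each sample, as log2(TPM + 1) minus the WT mean, for WT (blue) and hSKP2-KI (red) samples, with bars for means of 4 samples. Hoxa10, Hoxa11 and Hoxd13 (0.87, 0.88 and 0.76) lie near fibroblast (0.90) and smooth muscle markers (0.76), and Hoxb13 (-0.13) lies below the epithelial markers (0.18). Endothelial markers (0.63) are also higher, as are leukocyte markers (0.74), which are not shown.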

How the data were processed

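The authors sequenced poly(A) RNA from whole ventral prostate lobes, 1 library for each of 4 hSKP2-KI and 4 WT mice. Per the paper's methods, reads were trimmed and mapped in CLC software, and the submitters' processing notes name the builds GRCm38 and mm10. The annotation, version and strand setting are not given in the sources used here. The authors deposited 1 table of TPM, in which every sample sums to 1000000, with 0 columns of other samples. Depth is unknown, so no count model or counting interval was used, and a value of 0 does not by itself show absence.

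Hox genes, lists of related genes and cell type markers, and tests were chosen with earlier results of these data known. The 13080 genes that reached 1 TPM in 4 or more of the 8 samples were fitted as log2(TPM + 1), which understates fold changes of low genes, with limma 3.58.1 in R 4.3.3 (mean-variance trend). P-values were adjusted over all of them by Benjamini-Hochberg, threshold 0.05. The procedure was tested on simulated data. Hox genes below the filter and ratios of 2 Hox genes were compared between genotypes by a two-sided exact permutation test. Named were all Hox genes with a mean TPM of at least 1 or a call, and of each list the members called and the 2 most abundant. Haglr, Hottip, Hoxa6, Hoxc4, Hoxc9, Hoxd3, Pknox2, Ezh2 and the other genes below the test's threshold were named after their values were seen. A few genes that the rule covers are left out of the text. P-values measure the spread between mice. No batch is labelled.

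As alternatives the pseudocount was set to 0.1, the filter was dropped or set to a mean of 5 TPM, and the TPM were scaled by median ratios, by quantiles or anew after removing the 20 most abundant genes. The fit was also run with replicate number as a block, with quality weights per sample, with the robust form of the empirical Bayes step, and without each sample in turn. Positions come from GENCODE M21 (GRCm38) and promoter windows from RefSeq (GRCm38.p6). Plots were made in Python 3.11.15 (matplotlib 3.10.9).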

Additional observations from a re-analysis of the deposited data

Results flagged for a closer look

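One group of samples held a value far from the others. Hoxb8 in WT sample 3 was 6.03 TPM, whereas the other 3 WT samples lay between 13.9 and 15.3 TPM, and the gap to the nearest of them was 0.848 of the group's range, above the critical value of Dixon's test for 4 samples. The 24 tested genes in both genotypes made 48 groups, and chance flags about 1 in 20 groups.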

How the results depend on the processing

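No fold change of a tested Hox gene changed sign under any of the alternatives named above. The 15 calls, all higher, were 14 with a pseudocount of 0.1, 11 of 36 tested without a filter, 14 with sample quality weights and 15 with a robust empirical Bayes step. They were 9 under median-ratio scaling, 5 under quantile normalization (4 higher and 1 lower, Hoxb13) and 8 after rescaling without the 20 most abundant genes (7 higher and 1 lower, Hoxb13). With a mean TPM of at least 5 they were 4, since only 7 Hox genes were then tested. The counts over all genes moved too. Of 13080 genes, 4272 were called higher on the TPM as deposited, 4247 with a pseudocount of 0.1 and 905 under median-ratio scaling. Quantile normalization gave 709 higher and 608 lower, and rescaling without the 20 most abundant genes gave 892 and 438. Without a filter 3255 of 23826 genes were higher, and 3315 of 9569 with a mean TPM of at least 5. Leaving out 1 sample gave 11 to 18 Hox calls, with 11 to 18 higher and 0 to 1 lower. The lower call was Hoxb8, without WT sample 3 or hSKP2-KI sample 1. Without any one sample, 11 of the 15 genes were still called, and Hoxa2, Hoxa3, Hoxb4 and Hoxd4 were not. Median-ratio scaling with a sample also left out, an alternative chosen after seeing the data, gave 1, 4, 3 and 6 calls without WT samples 1 to 4 and 3, 3, 8 and 2 without hSKP2-KI samples 1 to 4, of which 2 were higher and 1 (Hoxb8) lower without WT sample 3 and without hSKP2-KI sample 1. In these 8 fits Hoxa10 was called each time (0.53 to 0.70, limma adjusted p from 0.00482 to 0.0217), Hoxa9 and Hoxa11 in 4, Hoxa5 and Hoxd13 in 3, Hoxd12 in 2, and Hoxd8, Hoxd9, Hoxd10 and Hoxd11 in 1 each. The lowest values of Hoxb6 and Hoxb9 in these fits were -0.11 and -0.06, below 0. The cause of these changes was not tested.

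A replicate block gave 18 calls, all higher. The numbers do not pair the mice: deviations of samples with the same number correlated at 0.22, -0.11, 0.17 and -0.01, computed over genes, and genes are no independent replicates. TPM carries no depth, so the precision of the low Hox genes is unknown.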
